A study of Mus musculus with 47 samples.

Results

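The Pax, Six-family and Eya genes examined here are 9 mouse genes, Pax7, Pax3, Six2, Six4, Six5, Eya1, Eya2, Eya3 and Eya4, taken by their symbols from a table of 45650 gene symbols. All 9 were found. Their RNA was measured by polyA RNA-seq in C2C12 cells, an immortalized mouse myoblast line that differentiates and fuses into myotubes when serum is withdrawn. The C2C12 iMyoD1 population keeps its endogenous MyoD1 and carries a doxycycline (dox)-inducible Halo-tagged MyoD1, and 2 further C2C12 lines carry dox-inducible Cdh23 or Mcam, both cell adhesion genes. C2C12 iMyoD1 was sampled in growth medium (0 h) and after 24, 48 and 120 h of differentiation, with 24 h of dox or vehicle at 0 and 24 h, 48 h at 48 h and 120 h at 120 h. At 120 h it was sampled as whole culture and, after a 40 µm strainer, as myoblast-enriched and myotube-enriched fractions. The C2C12 iCdh23 and C2C12 iMcam lines were sampled after 48 h of differentiation with 48 h of dox or vehicle. Each of the 16 groups held 3 libraries labelled as biological replicates, except the dox-treated myoblast-enriched fraction, which held 2 (replicates 2 and 3), giving 47 libraries. Dox was used at 1 µg/mL. The iMyoD1 population is described in the study as polyclonal, with the transgene induced in part of the nuclei. Cells of the parental line given dox were not analysed here, so an effect of dox itself and an effect of the transgene cannot be told apart.

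Pax3 and Pax7 are paired-box transcription factors that specify muscle progenitors; Pax7 marks satellite cells, the stem cells of adult muscle, and persists in the reserve cells of differentiating cultures. Six-family proteins are homeodomain factors that bind the MEF3 motif in muscle regulatory regions, and Eya proteins are phosphatases without DNA-binding activity that join Six-family proteins as co-activators. Together the Pax-Six-Eya-Dach network acts upstream of, and alongside, the myogenic regulators Myf5, MyoD1 and myogenin.

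MyoD1 binds E-boxes, whose letters are CANNTG, and Six-family proteins bind the MEF3 motif, TCAGGTTTC, so the windows of 250 bases upstream of the annotated starts were searched for these letters on both strands. RefSeq promoters (GRCm38.p6) were matched for 6 of the 9 genes, with 8 windows. No window held CAGCTG, a form of CANNTG that MyoD1 binds well and that 13% of 32851 windows held. CANNTG was held by the Eya3 window and by 1 of the 2 Eya4 windows, against 66.2% of all windows. TCAGGTTTC was held by 1 of the 2 Six4 windows, against 0.387% of all windows, and there it lay inside the first exon of the transcript Six4-201. The stretches outside exons are shown for Eya3, Six4 and Six5, with the E-box in capitals, to set a gene with an E-box in its window beside 2 that have none; the last line is the Six4 site, with capitals marking the reverse complement of TCAGGTTTC.
Eya3 (chr4:132638796-132638986, plus strand): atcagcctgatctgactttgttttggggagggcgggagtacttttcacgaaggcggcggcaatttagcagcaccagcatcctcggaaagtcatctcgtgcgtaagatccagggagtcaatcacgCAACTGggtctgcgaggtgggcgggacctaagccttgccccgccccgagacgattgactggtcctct
Six4 (chr12:73113457-73113675, minus strand): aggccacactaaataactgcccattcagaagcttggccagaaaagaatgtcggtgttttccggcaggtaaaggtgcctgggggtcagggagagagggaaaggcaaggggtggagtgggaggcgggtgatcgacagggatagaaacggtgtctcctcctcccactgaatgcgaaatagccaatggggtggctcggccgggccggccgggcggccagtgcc
Six5 (chr7:19094294-19094543, plus strand): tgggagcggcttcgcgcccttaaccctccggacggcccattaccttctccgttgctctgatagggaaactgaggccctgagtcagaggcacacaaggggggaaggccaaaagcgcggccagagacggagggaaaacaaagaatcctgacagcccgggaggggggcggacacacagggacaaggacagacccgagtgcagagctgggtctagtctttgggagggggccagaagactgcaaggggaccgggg
Six4 site (chr12:73113328-73113352, minus strand): gcctggggGAAACCTGAtcggccag
The Pax7 window lay wholly within an annotated exon. Eya1, Eya2 and Pax3 had no entry.

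The libraries held 15066362 to 50950706 estimated counts, with a median of 22837955. In the myotube-enriched dox group the mean rank correlation of a library with its group mates was 0.896 to 0.924, lower than in every other group, and replicate 1 stood furthest apart. Total Myod1 did not rise with dox: at 0 h it was 181, 171 and 180 CPM (counts scaled to library size) untreated and 197, 178 and 189 CPM with dox (log2 fold change 0.09, edgeR adjusted p = 0.20), and at 24 h it was lower with dox (-0.23, edgeR adjusted p = 0.0041). Myod1 was also lower with dox at 48 h (-0.36, edgeR adjusted p = 0.00045) and in whole cultures at 120 h (-1.62, edgeR adjusted p = 1.3e-05). With dox it fell in the C2C12 iCdh23 line (-2.59, edgeR adjusted p = 0.00016) and the C2C12 iMcam line (-1.63, edgeR adjusted p = 0.00063), and was not called in the myoblast-enriched (-0.17) or myotube-enriched (0.004) fraction. Whether the reference held the Halo-MyoD1 transgene is not given in the sources used here. Mcam in the C2C12 iMcam line rose from 19.8, 17.1 and 17.3 to 69.0, 70.2 and 74.7 CPM. Cdh23 in the C2C12 iCdh23 line was 370, 348 and 451 CPM untreated and 568, 426 and 464 CPM with dox, ranges that overlapped (log2 fold change 0.32, edgeR adjusted p = 0.10). Untreated Cdh23 at 48 h was 5.61, 8.86 and 8.71 CPM in the C2C12 iMcam line and 8.49, 10.2 and 9.42 CPM in C2C12 iMyoD1. The untreated C2C12 iCdh23 libraries thus already held far more Cdh23 RNA, and the dox comparison of that line does not set absent against present Cdh23. The 8 listed myotube markers summed to 11.1 to 12.3 CPM in the untreated libraries at 24 h and to 12227 to 13507 CPM in those at 48 h. The 3 endothelial markers summed to at most 0.93 CPM, the 3 immune markers to at most 4.04 CPM, and the 3 neural crest or Schwann cell markers to at most 6.01 CPM, with Adgre1 and Sox10 at 3 counts or fewer in every library. The 6 fibroblast or fibro-adipogenic markers summed to 14.6 to 16.6 CPM untreated at 24 h and 131 to 145 CPM untreated at 48 h, to 60.4 to 61.1 CPM with dox at 48 h, and in the C2C12 iCdh23 line to 77.3 to 181 CPM untreated and 18.3 to 19.4 CPM with dox; Adipoq was at 3 counts or fewer in every library. Their part in the results at those times was not tested. All 48 and 120 h libraries carry the batch label RNAseq_v2, and the 0 and 24 h libraries carry none, so from 24 to 48 h time and batch cannot be told apart. In these bulk samples, fewer cells of a type and less RNA per cell cannot be told apart either.

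Of the 9 genes, 6 were measured above background. Pax3 had at most 4 counts in any library and 0 in 37 of 47. Six2, best known for kidney progenitors, had at most 4 counts and was at 0 in 21 libraries. Eya2, the family member best known from the somite and limb muscle, reached 8 counts in 1 untreated library at 0 h, where the 3 replicates had 4, 8 and 5 counts, and in 1 dox-treated myoblast-enriched library, whose replicate had 0, and had 3 or fewer in 41 of 47 libraries. These 3 genes were below the filter on low counts in every comparison, and for them a difference was not detectable at this depth.

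Pax7, Six4, Six5, Eya1, Eya3 and Eya4 passed the filter in every comparison. Per length of transcript, the median level over the 47 libraries was 30.9 TPM (a library-scaled level) for Eya3, 27.5 for Pax7, 22.5 for Eya4, 16.4 for Six4, 14.6 for Eya1 and 7.68 for Six5. Pax7 and Six5 varied most between groups: the highest group mean exceeded the lowest 13.1-fold for Pax7 (141 against 10.8 CPM) and 10.9-fold for Six5 (24.5 against 2.25 CPM). Eya3 varied least, 2.28-fold between 105 and 45.9 CPM. The spans of Eya1, Six4 and Eya4 were 4.12-fold, 3.54-fold and 3.26-fold. With the 16 groups put in order of their means, the ranges of neighbouring groups overlapped for 10 of 15 pairs for Pax7 and for Six5, 11 for Eya3, 12 for Six4, and 13 for Eya1 and for Eya4.

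**Figure D1:**
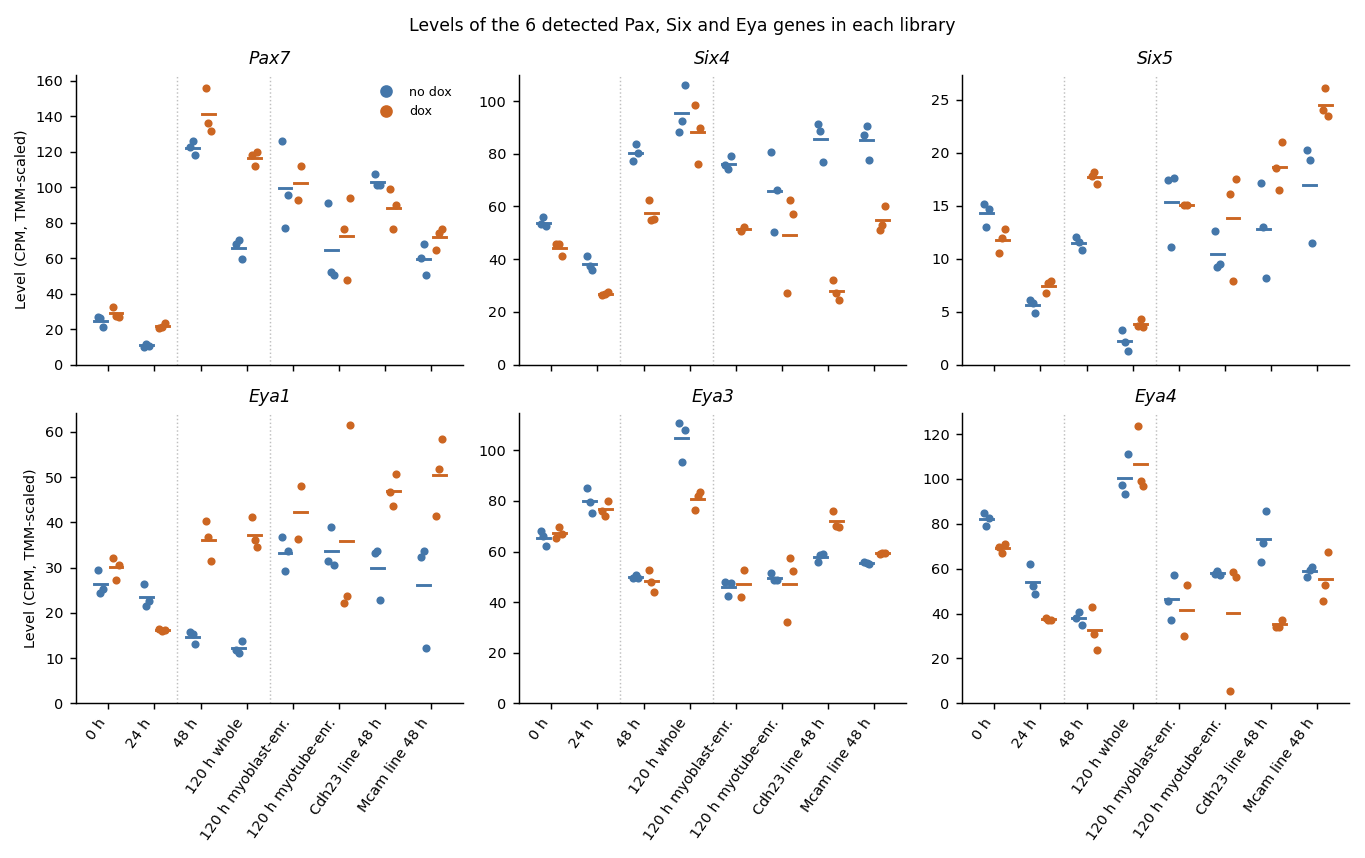
Level of each of the 6 measured genes in CPM (linear axis from 0, own scale for each gene) in every library, by group, blue without and orange with dox; points are libraries, short bars are group means, and dotted lines set apart the groups with no batch label on the left and the strained fractions and other lines on the right. Pax7 sits between 10.03 and 11.8 CPM in the untreated 24 h libraries and between 118 and 126 CPM in the untreated 48 h libraries, and 1 dox-treated myotube-enriched library lies at 5.44 CPM for Eya4.

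The group with the highest mean differed between the genes. It was the dox-treated group at 48 h for Pax7, the untreated whole culture at 120 h for Six4 and Eya3, the dox-treated C2C12 iMcam line for Six5 and Eya1, and the dox-treated whole culture at 120 h for Eya4. The lowest mean was at 24 h for Pax7 (untreated) and Six4 (dox), in the untreated whole culture at 120 h for Six5 and Eya1, in the untreated myoblast-enriched fraction for Eya3, and at 48 h with dox for Eya4.

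The genes called at an adjusted p under 0.05 were counted against the share of all tested genes called, because dox and time moved much of the transcriptome. With dox at 0 h, 0 of the 6 rose and 2 fell, while 19.1% of 13550 genes rose and 18.7% fell; 5 of the 6 had an unadjusted p under 0.05, as had 6327 of the 13550 genes. At 24 h, 2 rose and 3 fell (31.1% and 31.7% of 14078 genes), and at 48 h, 3 rose and 1 fell (27.9% and 28.7% of 13871). In whole cultures at 120 h, 2 rose and 1 fell (21.4% and 23.7% of 13627). For the C2C12 iCdh23 line the counts were 2 and 2 (31.3% and 32.4% of 14227), and for the C2C12 iMcam line 1 and 1 (24.2% and 24.8% of 13731). In the myoblast-enriched fraction none rose and 1 fell (1.82% and 2.52% of 14249), and in the myotube-enriched fraction none was called (0% of 14113). The 619 genes behind the shares in the myoblast-enriched fraction became 0 without dox-treated replicate 2 or untreated replicate 3, and 14 without dox-treated replicate 3. In whole cultures and in the adhesion lines, 2 to 5 of the 6 were called, shares not far from those of all genes. The median log2 fold change of the 6 ranged from -0.30 at 24 h to 0.41 in whole cultures at 120 h, beside -0.0024 and -0.0012 over all genes. The dox effect differed between 24 and 0 h for 5 of the 6, against 34.1% of 14448 genes, and for 3 of the 6 with an offset for transcript GC content, an alternative chosen after seeing the data (the GC offset).

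In the untreated time course, the step from 0 to 24 h raised 1 of the 6 and lowered 4, beside 37.3% and 37% of 13632 genes. The step from 24 to 48 h raised 3 and lowered 3 (38.4% and 38.4% of 14017 genes), and that from 48 to 120 h raised 3 and lowered 2 (33% and 34.1% of 13785 genes). The direction of a dox effect was not shared by the family: at 24, 48 and 120 h in whole culture and in both adhesion lines, at least 1 member rose and at least 1 fell. Comparisons that share untreated libraries, such as those over time and those with dox, are not independent of each other.

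**Figure D2:**
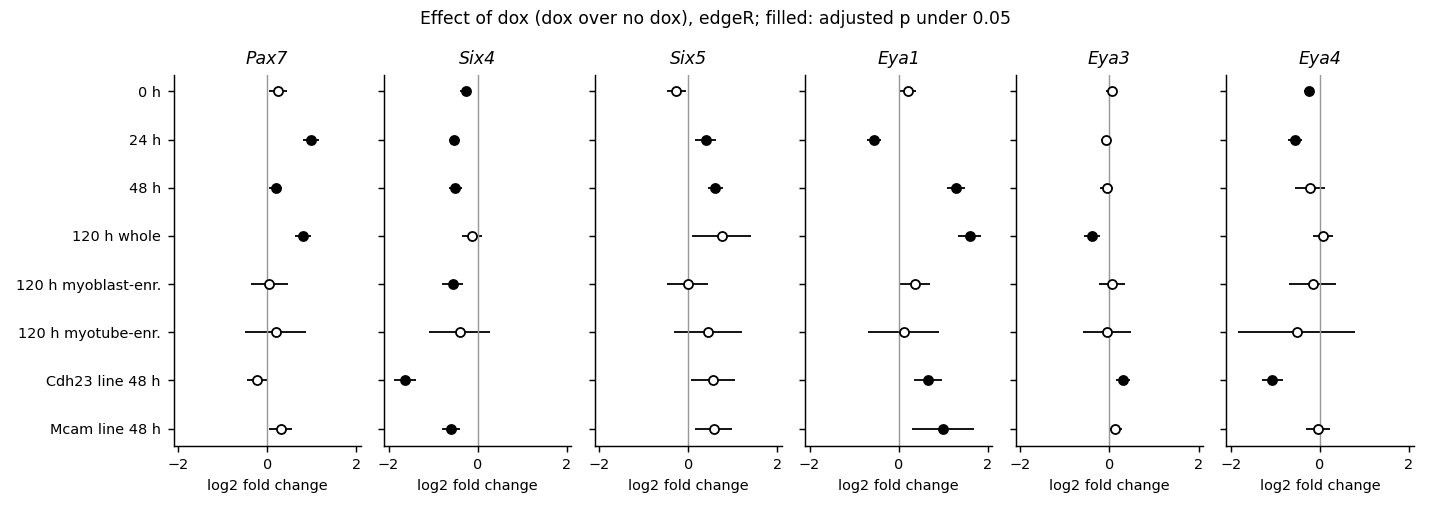
Log2 fold change of each gene with dox against without, in each of the 8 dox comparisons, with 95% intervals taken from the standard error; filled points passed the edgeR test. The intervals use a normal quantile and are narrower than the edgeR test would give. Eya1 lies at 1.29 at 48 h and 1.59 at 120 h in whole culture but at -0.56 at 24 h, and Six4 lies below 0 in all 8 comparisons.

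Pax7 fell in the first day of differentiation, was many-fold higher in the 48 h libraries, and was higher with dox at 24 h and in whole cultures at 120 h. Untreated, its level was 26.8, 26.2 and 21.0 CPM at 0 h, 10.03, 11.8 and 10.6 CPM at 24 h, 122, 126 and 118 CPM at 48 h, and 68.0, 69.99 and 59.3 CPM at 120 h. No untreated library of one time overlapped with those of the time before it. It fell by 1.15 (log2, SE 0.11, edgeR adjusted p = 5.1e-07) from 0 to 24 h, rose 11.3-fold (log2 3.498, SE 0.07, edgeR adjusted p = 7.6e-14) from 24 to 48 h, and fell by 0.87 (SE 0.09, edgeR adjusted p = 3.1e-05) from 48 to 120 h. The 24 to 48 h step crosses the batches. In it Six3 and Dach1, genes of the same network picked after their values were seen, went from clearly measured to almost nothing. Six3 had 18.6 to 20.6 CPM at 24 h and 0 to 0.119 CPM at 48 h, and Dach1 had 12.8 to 13.3 CPM at 24 h and 0 CPM in all 3 libraries at 48 h. Of 6 Dach genes and co-factors tested in that step, 2 rose and 1, Dach1, fell, and of 2 other Pax genes tested 1 rose and 1 fell. The fall of Six3 and Dach1 was thus not shared by all genes of these lists. Six3 and Dach1 stayed below 1 CPM in every later group of all 3 lines. Whether the libraries on both sides of that step came from the same stock of cells is not given in the sources used here.

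With dox, Pax7 was 20.6, 21.1 and 23.3 CPM at 24 h, where every dox-treated library lay above every untreated one, a 1.97-fold rise (log2 0.98, SE 0.09, edgeR adjusted p = 1.7e-06). In whole cultures at 120 h, dox-treated libraries held 118, 112 and 119 CPM against 59.3 to 69.99 CPM, again without overlap, a 1.75-fold rise (log2 0.81, SE 0.09, edgeR adjusted p = 0.00014). The other dox effects on Pax7 were small or not called. At 48 h the dox-treated libraries held 156, 136 and 131 CPM against 118 to 126 CPM, and the rise of 0.20 (log2, SE 0.07, edgeR adjusted p = 0.045) was no longer called without the first dox-treated library (0.12, adjusted p = 0.069) or without any single untreated library (0.17 to 0.22), and was 0.09 (adjusted p = 0.40) with the GC offset. At 0 h the difference was 0.24 (edgeR adjusted p = 0.070), with dox-treated values of 32.3, 27.5 and 26.8 CPM. For the C2C12 iCdh23 line the difference was -0.22 (95% interval -0.45 to 0.00, edgeR adjusted p = 0.13), and in the C2C12 iMcam line it was 0.30 (95% interval 0.05 to 0.56, edgeR adjusted p = 0.089). The first was called with the GC offset (-0.30, adjusted p = 0.026) and the second without the second untreated library (0.41, adjusted p = 0.041). The 24 h effect exceeded the 0 h effect by 0.69 (SE 0.14, interaction test, edgeR adjusted p = 0.0011).

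The rise of Pax7 with dox went with different marker changes at different times. At 24 h, 1 rose and 1 fell of 7 myotube markers tested, and 1 rose and 2 fell of 5 proliferation markers. At 48 h, 8 of 8 myotube markers and 5 of 5 proliferation markers fell with dox; in whole cultures at 120 h, 5 of 8 myotube markers fell and 1 rose, and 5 of 5 proliferation markers rose. In those whole cultures 2 of 6 myoblast markers fell and 0 rose, and 3 of 5 fibroblast or fibro-adipogenic markers fell and 1 rose. Of the 7 listed satellite or reserve cell markers, which include Pax7, 1 rose and 3 fell of 5 tested at 120 h, 3 rose and 2 fell of 5 at 48 h, and 1 rose and 2 fell of 4 at 24 h. The 1 that rose at 24 and at 120 h was Pax7 itself, while Spry1 and Cd34 fell at both times, and at 48 h Cd34 and Sdc4 rose with Pax7 and Spry1 and Heyl fell. Calcr was at 3 counts or fewer in every library. Their part in the Pax7 result was not tested.

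Six4, a homeodomain factor of muscle regulatory genes, was lower with dox at 0, 24 and 48 h and in both adhesion lines. At 0 h it was 53.2, 55.9 and 52.5 CPM untreated and 45.9, 45.6 and 41.3 CPM with dox. At 24 h it was 41.1, 37.4 and 35.8 CPM untreated and 26.4, 27.0 and 27.6 CPM with dox, and at 48 h 77.2, 83.8 and 80.2 against 62.3, 54.8 and 55.1 CPM. At each of these times every dox-treated library lay below every untreated one. Six4 fell by 0.27 (log2, SE 0.06, edgeR adjusted p = 0.0040) at 0 h, by 0.52 (SE 0.06, edgeR adjusted p = 1.5e-05) at 24 h and by 0.50 (SE 0.08, edgeR adjusted p = 0.00022) at 48 h. The fall at 24 h exceeded that at 0 h by 0.30 on the log2 scale (interaction -0.30, SE 0.09, edgeR adjusted p = 0.015), a call lost by DESeq2 (-0.24, adjusted p = 0.055) and with the GC offset (-0.22, adjusted p = 0.053). In whole cultures at 120 h the untreated libraries held 88.2, 92.6 and 106 CPM and the dox-treated ones 98.6, 76.1 and 89.8 CPM, ranges that overlapped (-0.13, 95% interval -0.36 to 0.10, edgeR adjusted p = 0.40; with the GC offset -0.25, adjusted p = 0.012).

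Six4 had its largest dox effect in the C2C12 iCdh23 line. It was 91.3, 88.7 and 77.0 CPM untreated and 32.0, 27.1 and 24.4 CPM with dox, a 3.08-fold fall (log2 -1.62, SE 0.13, edgeR adjusted p = 3.3e-05). In the C2C12 iMcam line it was 87.0, 90.6 and 77.5 CPM untreated and 51.3, 52.9 and 60.4 CPM with dox (log2 -0.60, SE 0.10, edgeR adjusted p = 0.0028). In both lines the groups did not overlap; the difference between the lines was not tested. With dox in the C2C12 iCdh23 line, 8 of 8 myotube, 6 of 6 myoblast and 5 of 5 proliferation markers also fell, with summed myotube markers of 4863 to 8015 CPM untreated and 33.0 to 116 CPM with dox, and in the C2C12 iMcam line 7 of 8, 6 of 6 and 5 of 5. Their part in the Six4 result was not tested.

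Six5, whose gene lies 773 bp from Dmpk on the same strand at the myotonic dystrophy locus, moved the other way from Six4 at 48 h. It was 12.1, 11.6 and 10.8 CPM untreated and 17.8, 18.2 and 17.01 CPM with dox, with no overlap (log2 0.61, SE 0.09, edgeR adjusted p = 0.00014; with the GC offset 0.35, adjusted p = 0.0076). At 24 h it was 6.09, 5.85 and 4.88 CPM untreated and 6.75, 7.73 and 7.91 CPM with dox (log2 0.39, SE 0.12, edgeR adjusted p = 0.013), a call lost without the third dox-treated library (0.35, adjusted p = 0.057) or the third untreated one (0.30, adjusted p = 0.053), and with the GC offset (0.06, adjusted p = 0.70). At 0 h the dox-treated libraries, at 10.6, 11.96 and 12.8 CPM, lay below the untreated 15.1, 13.0 and 14.7 CPM, and the difference of -0.27 was not called (edgeR adjusted p = 0.061). It was called without the third dox-treated library (-0.34, adjusted p = 0.034), without the second untreated one (-0.33, adjusted p = 0.047) and with the GC offset (-0.37, adjusted p = 0.012). The dox effect at 24 h differed from that at 0 h by 0.61 (SE 0.16, interaction test, edgeR adjusted p = 0.0076), a call lost with the GC offset (0.39, adjusted p = 0.077). Over time without dox, Six5 fell by 1.31 (SE 0.12, edgeR adjusted p = 2.9e-07) from 0 to 24 h, rose by 1.04 (SE 0.12, edgeR adjusted p = 4.9e-06) from 24 to 48 h, and fell by 2.33 (SE 0.26, edgeR adjusted p = 5.3e-05) from 48 to 120 h. With the GC offset the last 2 steps kept their direction and call but were smaller, at 0.51 (adjusted p = 0.0022) and -1.13 (adjusted p = 0.00010).

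Six5 was lowest in whole cultures at 120 h, at 3.25, 2.17 and 1.33 CPM untreated and 3.64, 4.27 and 3.55 CPM with dox. The dox-treated libraries lay above the untreated ones there, and the difference of 0.75 (log2, SE 0.34) was not called (edgeR adjusted p = 0.099), but was called without the first untreated library (1.10, adjusted p = 0.026). In the C2C12 iMcam line Six5 was 20.2, 19.3 and 11.4 CPM untreated and 24.0, 26.1 and 23.4 CPM with dox, with no overlap (0.57, SE 0.21, edgeR adjusted p = 0.054). It was called without the first untreated library (0.70, adjusted p = 0.039) and, at a smaller size, without the third (0.34, adjusted p = 0.029). There the replicate numbers pair the libraries, and with the replicate as a block the same difference was called (0.60, SE 0.16, adjusted p = 0.020). In the C2C12 iCdh23 line the untreated libraries held 17.1, 13.0 and 8.15 CPM and the dox-treated 18.6, 16.5 and 21.0 CPM, which overlapped (0.55, SE 0.25, edgeR adjusted p = 0.093). Without 1 library the difference ranged from 0.30 to 0.82, and it was called without the first untreated one (0.82, adjusted p = 0.015).

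Six4 over time without dox fell by 0.47 (log2, SE 0.07, edgeR adjusted p = 2e-05) from 0 to 24 h and rose by 1.08 (SE 0.07, edgeR adjusted p = 5.8e-09) from 24 to 48 h. From 48 to 120 h it rose by 0.27 (SE 0.10, edgeR adjusted p = 0.035), a call lost without any single untreated 48 h library (0.23 to 0.30) or without the second 120 h library (0.29, adjusted p = 0.068). With the GC offset its direction turned (-0.059, adjusted p = 0.36).

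Eya1 showed the largest rises with dox in the C2C12 iMyoD1 population, and its effect had the opposite sign at 24 h. At 24 h it was 26.4, 21.6 and 22.6 CPM untreated and 16.5, 15.98 and 16.2 CPM with dox. At 48 h it was 15.7, 15.3 and 13.2 CPM untreated and 40.4, 36.7 and 31.5 CPM with dox, and in whole cultures at 120 h 11.9, 11.2 and 13.7 against 41.2, 36.0 and 34.6 CPM. The groups did not overlap at any of these times: all dox-treated libraries were lower at 24 h and all were higher at 48 and 120 h. Eya1 fell by 0.56 (log2, SE 0.08, edgeR adjusted p = 9.5e-05) at 24 h, rose 2.44-fold (1.29, SE 0.11, edgeR adjusted p = 2.7e-06) at 48 h and rose 3.01-fold (1.59, SE 0.13, edgeR adjusted p = 2.1e-05) at 120 h. The dox effects at 24 and 48 h lie in different batches, and the difference between them was not tested. At 0 h the libraries overlapped, at 29.4, 24.3 and 25.2 CPM untreated and 32.2, 27.3 and 30.6 CPM with dox (0.21, edgeR adjusted p = 0.080; called without the second dox-treated library, 0.27, or the first untreated one, 0.29), and the effect at 24 h lay below that at 0 h by 0.81 (interaction -0.81, SE 0.12, edgeR adjusted p = 6.6e-05).

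In the adhesion lines Eya1 was higher with dox as well. It was 33.3, 33.6 and 22.9 CPM untreated and 46.8, 43.7 and 50.6 CPM with dox in the C2C12 iCdh23 line (0.65, SE 0.16, edgeR adjusted p = 0.0081; with all groups fitted together 0.66, adjusted p = 0.12), and 32.3, 33.8 and 12.2 against 41.3, 51.9 and 58.4 CPM in the C2C12 iMcam line (0.99, SE 0.35, edgeR adjusted p = 0.048). In both lines every dox-treated library lay above every untreated one, and the third untreated C2C12 iMcam library was far below the other two. Without any single dox-treated C2C12 iMcam library the difference was not called (0.88 to 1.12, adjusted p = 0.064 to 0.12), and without the third untreated library it was 0.64 and was still called. Over time without dox, Eya1 fell by 0.67 (SE 0.10, edgeR adjusted p = 4e-05) from 24 to 48 h and was not called from 0 to 24 h (-0.13, 95% interval -0.31 to 0.06) or from 48 to 120 h (-0.25, 95% interval -0.51 to 0.01; called with the GC offset, -0.53, adjusted p = 0.0015, and without the third 120 h library, -0.33, adjusted p = 0.029). Over all alternatives the last difference ranged from -0.53 to 0.26, so its direction was not kept. Per length of transcript, the untreated mean was 5.70 TPM at 48 h and 7.91 TPM in whole cultures at 120 h.

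Eya3, the most evenly expressed of the 6 genes, was close to its untreated level with dox at 0, 24 and 48 h. At 48 h it was 49.6, 50.6 and 49.6 CPM untreated and 52.6, 48.2 and 44.2 CPM with dox. The differences were 0.05 (log2, 95% interval -0.07 to 0.17) at 0 h, -0.08 (-0.19 to 0.03) at 24 h and -0.06 (-0.21 to 0.09) at 48 h, none of them called by edgeR. In whole cultures at 120 h Eya3 was 111, 95.5 and 108 CPM untreated and 76.4, 82.1 and 83.7 CPM with dox, with no overlap, a fall of 0.39 (log2 -0.39, SE 0.09, edgeR adjusted p = 0.0077). In the C2C12 iCdh23 line it rose from 55.9, 58.8 and 58.9 to 75.9, 70.2 and 69.7 CPM (0.31, SE 0.08, edgeR adjusted p = 0.0095), a call lost with length-scaled counts (0.17, adjusted p = 0.16) and with all groups fitted together (0.32, adjusted p = 0.088). The C2C12 iMcam libraries also did not overlap, at 56.1, 55.5 and 55.1 CPM untreated and 59.2, 59.3 and 59.4 CPM with dox, and the difference of 0.13 was not called (edgeR adjusted p = 0.18).

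Without dox, Eya3 was 68.2, 66.0 and 62.0 CPM at 0 h and 85.2, 79.5 and 75.3 CPM at 24 h, a rise of 0.33 (log2, SE 0.06, edgeR adjusted p = 0.00039). It fell by 0.67 (SE 0.06, edgeR adjusted p = 3.3e-07) from 24 to 48 h and rose by 1.09 (SE 0.09, edgeR adjusted p = 7.9e-06) from 48 to 120 h. The first and second of these steps rested partly on a transcript annotated as non-coding. Eya3-212, a processed transcript of 2320 nt, took 14.7% ± 3.6 (SD, n = 3) of the estimated Eya3 counts at 0 h and 25.04% ± 1.9 (SD, n = 3) at 24 h without dox, and had 0 estimated counts in all 3 untreated libraries at 48 h. Counted over protein-coding transcripts alone, the rise from 0 to 24 h was 0.14 and was not called (adjusted p = 0.083), and the fall from 24 to 48 h was 0.22 (log2 -0.22, adjusted p = 0.0073), while the dox difference at 0 h, where the share of Eya3-212 was 5.24% ± 4.7 (SD, n = 3) with dox, became 0.22 (adjusted p = 0.034).

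Eya4 was lower with dox in growth medium at 0 h, after 24 h of differentiation and in the C2C12 iCdh23 line. At 0 h it was 84.9, 79.0 and 82.7 CPM untreated and 69.7, 67.0 and 71.1 CPM with dox (log2 -0.24, SE 0.06, edgeR adjusted p = 0.0052). At 24 h it was 61.9, 52.3 and 48.6 CPM untreated and 37.9, 37.3 and 37.2 CPM with dox (log2 -0.56, SE 0.08, edgeR adjusted p = 5.3e-05). Neither pair of groups overlapped, and the fall at 24 h exceeded that at 0 h (interaction -0.37, SE 0.10, edgeR adjusted p = 0.0079). In the C2C12 iCdh23 line Eya4 was 63.0, 71.6 and 85.7 CPM untreated and 33.9, 34.2 and 37.3 CPM with dox, a 2.09-fold fall (log2 -1.06, SE 0.12, edgeR adjusted p = 0.00023). With all groups fitted together it was not called (-1.05, adjusted p = 0.069). In the C2C12 iMcam line the libraries overlapped, at 56.4, 59.4 and 60.6 CPM untreated and 45.7, 52.7 and 67.6 CPM with dox (-0.05, 95% interval -0.32 to 0.22).

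At 48 h Eya4 depended on 1 library. It was 37.9, 40.9 and 34.7 CPM untreated and 43.0, 31.0 and 23.8 CPM with dox (-0.22, SE 0.17, edgeR adjusted p = 0.30), and without the first dox-treated library the fall was called (-0.46, SE 0.10, adjusted p = 0.0019). At 120 h in whole culture the libraries overlapped, at 97.4, 93.2 and 111 CPM untreated and 123, 99.1 and 97.0 CPM with dox (0.07, 95% interval -0.16 to 0.30). Over time without dox Eya4 fell by 0.57 (SE 0.08, edgeR adjusted p = 1.7e-05) from 0 to 24 h and by 0.52 (SE 0.09, edgeR adjusted p = 0.00016) from 24 to 48 h, and rose by 1.43 (SE 0.11, edgeR adjusted p = 5.1e-06) from 48 to 120 h. With the GC offset the fall from 24 to 48 h was not called (-0.11, adjusted p = 0.25).

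Eya4 had 2 transcripts in the files, and their shares moved with time. Eya4-201, of 3488 nt, took 48.5% ± 3.5 (SD, n = 3) of the estimated Eya4 counts at 0 h, 38.5% ± 3.1 at 24 h, 21.8% ± 1.8 at 48 h and 27.7% ± 2.6 in whole cultures at 120 h, all without dox and with 3 libraries each. The rest was Eya4-202, of 5304 nt. Every library at 0 and 24 h lay above every library at 48 h, a step that crosses the batches. With dox the shares were 44.6% ± 3.7, 43.3% ± 2.5, 19.4% ± 3.8 and 29.5% ± 1.4 (SD, n = 3), and at every time the dox-treated and untreated ranges overlapped. In the adhesion lines at 48 h the untreated share was 37.3% ± 1.7 for iCdh23 and 36.7% ± 6.0 for iMcam (SD, n = 3), above the iMyoD1 share at the same time and in the same batch. The lines lie in different deposited tables, and this difference between lines was not tested.

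**Figure D3:**
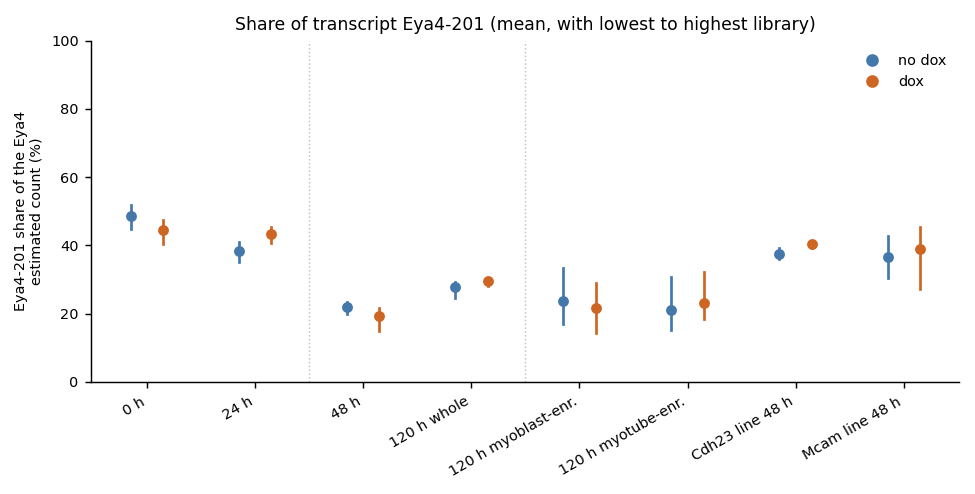
Percent of estimated Eya4 counts assigned to Eya4-201, by group, blue without and orange with dox; points are group means, vertical lines run from the lowest to the highest library, and dotted lines set apart the same sets of groups as in the plot of levels. The untreated C2C12 iMyoD1 groups go from 48.5% at 0 h to 21.8% at 48 h.

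The untreated 120 h fractions could not be told apart by the test for any of the 6 genes. Between the untreated myotube-enriched and myoblast-enriched fractions 0 of the 6 was called by edgeR, with 0 also at an unadjusted p under 0.05, against 2251 of 14023 genes at that level. Of all genes, 0.578% were called higher and 0.0143% lower in the myotube-enriched fraction, 83 genes in all. With the replicate as a block, which pairs these libraries, 676 genes were called, and 764 by DESeq2 without it. The count of 83 became 0 without myoblast-enriched replicate 1 or 2 or myotube-enriched replicate 3, 1 without myoblast-enriched replicate 3, and 47 and 249 without myotube-enriched replicates 2 and 1. Pax7 was 126, 77.2 and 95.4 CPM in the myoblast-enriched and 90.8, 52.4 and 50.7 CPM in the myotube-enriched fraction, ranges that overlapped. It was lower in the myotube-enriched fraction for each replicate number, by 0.60 (log2 -0.60, SE 0.27, edgeR adjusted p = 0.32; with the replicate as a block -0.63, adjusted p = 0.063). The 8 myotube markers summed to 5705 to 8883 CPM in the untreated myoblast-enriched and 11853 to 20026 CPM in the myotube-enriched fraction, without overlap, and the 5 proliferation markers to 340 to 936 and 109 to 524 CPM, which overlapped. The median log2 difference was 1.22 for the myotube and -1.26 for the proliferation markers, of which 1 passed the test, Myh3, an embryonic myosin of new myotubes (1.77, edgeR adjusted p = 0.032). Eya3 was higher in every myotube-enriched library than in every myoblast-enriched one, and the Eya4 groups met at their ends, with Eya3 at 51.7, 48.6 and 48.6 against 47.9, 42.5 and 47.4 CPM (0.13, edgeR adjusted p = 0.64) and Eya4 at 57.8, 58.9 and 57.0 against 45.7, 37.0 and 57.0 CPM (0.34, edgeR adjusted p = 0.38).

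The untreated whole cultures at 120 h lay outside both untreated fractions of the same time for 5 of the 6 genes, all but Pax7. Eya4 was 93.2 to 111 CPM in whole culture, 37.0 to 57.0 CPM in the myoblast-enriched and 57.0 to 58.9 CPM in the myotube-enriched fraction, and Eya3 was 95.5 to 111, 42.5 to 47.9 and 48.6 to 51.7 CPM. Six5 was 1.33 to 3.25 CPM in whole culture against 11.1 to 17.6 and 9.17 to 12.6 CPM, and Eya1 was 11.2 to 13.7 against 29.2 to 36.8 and 30.5 to 38.9 CPM. Six4 was 88.2 to 106 CPM in whole culture against 74.1 to 79.0 and 50.4 to 80.8 CPM. At 48 h the untreated means of Eya4, Eya3 and Six5 were 37.8, 49.9 and 11.5 CPM, nearer to their means in the fractions than to those in whole culture, and the steps from 48 to 120 h given above are to whole culture. For Eya1 the untreated mean at 48 h, 14.8 CPM, was nearer to that of whole culture, 12.3 CPM. The fibroblast or fibro-adipogenic markers summed to 95.8 to 103 CPM in untreated whole culture, 298 to 380 CPM in the myoblast-enriched and 101 to 330 CPM in the myotube-enriched fraction, and the proliferation markers to 191 to 224 CPM in whole culture. Their part in these differences was not tested. Whole cultures and fractions lie in different deposited tables, and the difference between them was not tested.

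The rise of Eya1 with dox in whole culture was not called in the fractions without a replicate block. Eya1 went from 33.2 to 42.3 CPM on average in the myoblast-enriched fraction (0.36, 95% interval 0.02 to 0.70, edgeR adjusted p = 0.28; with the replicate as a block 0.43, adjusted p = 0.021) and from 33.6 to 35.8 CPM in the myotube-enriched one (0.11, 95% interval -0.69 to 0.90, edgeR adjusted p = 0.998), with overlap in both. The intervals use a normal quantile and are too narrow here. The first leaves out 0, yet of the 6 genes only Six4 had an unadjusted edgeR p under 0.05 in that comparison. With 1 library left out, the difference ranged from 0.15 to 0.54 in the myoblast-enriched and from -0.54 to 0.35 in the myotube-enriched fraction. The difference between whole culture and fractions in this effect was not tested.

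With dox in the myoblast-enriched fraction, Six4 was 75.7, 74.1 and 79.0 CPM untreated and 50.8 and 52.2 CPM treated, without overlap, a fall of 0.56 (log2, SE 0.12, edgeR adjusted p = 0.0499) that lay just under the threshold of 0.05. It was not called without either dox-treated library or without replicate 1 or 3 of the untreated ones (adjusted p = 0.068 to 0.32). With dox in this fraction the fibroblast or fibro-adipogenic markers summed to 98.0 to 119 CPM, below the untreated libraries, with 2 of 5 called lower, and 2 of 6 myoblast and 1 of 8 myotube markers fell. Of the satellite or reserve cell markers 2 of 5 fell and 0 rose, with sums of 590 to 717 CPM untreated and 475 to 523 CPM with dox. The part of all these markers in the Six4 result was not tested. In the myotube-enriched fraction 0 of the 6 was called, and 0 at an unadjusted p under 0.05; of all genes, 79 had an unadjusted p under 0.05 and DESeq2 called 2. The first dox-treated library, the one that stood apart, had 5.44 CPM of Eya4 against 58.6 and 56.4 CPM in its replicates, 32.05 CPM of Eya3 against 57.5 and 52.4 CPM, and 27.2 CPM of Six4 against 62.5 and 57.3 CPM. With that library the Eya4 difference was -0.52 (log2, SE 0.67), and without it -0.01 (SE 0.18). The difference between the dox effects of the fractions was not called for any of the 6 (0% of 15008 genes; 217 genes at an unadjusted p under 0.05, and 2 by DESeq2).

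The other genes of the pathway were read from 3 lists: 7 other Pax genes, 8 Dach genes and co-factors, and 16 genes described as targets of Pax3, Pax7 and the Six-family or Eya proteins in muscle. The targets include Myod1, the gene of the inducible transgene. Myod1 and Myf5 are also among the myoblast markers, and Myog and Tnnt3 among the myotube markers, so counts of targets and of markers are not separate. Among the targets, with dox at 24 h, 3 rose and 6 fell of 15 tested, beside 31.1% and 31.7% of all genes, with a median of 0.01 against -0.0024 over all genes, from Myf5 (-2.96, SE 0.09, edgeR adjusted p = 2.2e-10), an early myogenic regulator, to Pfkm (1.02, SE 0.05, edgeR adjusted p = 9.6e-09), a glycolytic enzyme of muscle. At 48 h, 1 rose and 11 fell of 14, beside 27.9% and 28.7% of all genes, with a median of -0.51 against 0.01, from Id2 (-2.95, SE 0.09, edgeR adjusted p = 9.3e-09) to Id3 (0.58, SE 0.11, edgeR adjusted p = 0.00096), which both inhibit myogenic basic helix-loop-helix factors. In the C2C12 iCdh23 line none rose and 11 of 14 fell (median -1.88; 32.4% of all genes fell), and in the C2C12 iMcam line none rose and 12 of 14 fell (median -1.33; 24.8% of all genes fell), with Myog, the myogenin gene, at -7.26 (edgeR adjusted p = 9.3e-05) and -3.06 (edgeR adjusted p = 0.00097). At 120 h in whole culture 2 rose and 5 fell of 15 (21.4% and 23.7% of all genes), and at 0 h 3 rose and 4 fell of 12 (19.1% and 18.7%).

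Among the Dach genes and co-factors, 7 of the 8 symbols were in the files. With dox, 1 rose and 3 fell of 6 at 0 h, 1 rose and 4 fell of 7 at 24 h, 2 rose and 2 fell of 5 at 48 h, and 3 of 5 fell at 120 h in whole culture. Their median log2 fold changes were -0.23, -0.88, 0.17 and -0.70, and the shares of all genes that rose and fell were 19.1% and 18.7%, 31.1% and 31.7%, 27.9% and 28.7%, and 21.4% and 23.7%. Tle1, a Groucho-type co-repressor, fell most at 24 h (-1.22, SE 0.08, edgeR adjusted p = 7.2e-08), and Sobp, a Six-binding protein, rose most at 48 h (0.49, SE 0.08, edgeR adjusted p = 0.00027). Of the other Pax genes 1 to 3 passed the filter, with Pax6 falling at 48 h from 2.66 to 1.30 CPM (-1.04, SE 0.21, edgeR adjusted p = 0.0017).

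Fold changes were correlated with the base composition of transcripts, and the GC offset changed the estimates of some members. What lies behind this correlation was not tested. Over all tested genes the rank correlation of GC content with the log2 fold change, a description across genes that share libraries, was 0.241 in the 24 h and 0.223 in the 48 h dox comparison, 0.332 in that of the myotube-enriched fraction and -0.163 in that of whole cultures at 120 h. Without dox it was 0.239 from 24 to 48 h and -0.384 from 48 to 120 h. Six5 is GC-rich, with 61.12% in its longest transcript, and Eya4 is at the other end, with 41.29%. From 48 to 120 h, the median over 711 genes within 2 points of the GC content of Six5 was -1.12, against -2.33 for Six5. With dox at 24 h it was 0.29 over 744 genes, against 0.39 for Six5. With the GC offset the dox difference of Six5 in whole cultures at 120 h was 1.09 and was called (adjusted p = 0.0043).

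**Figure D4:**
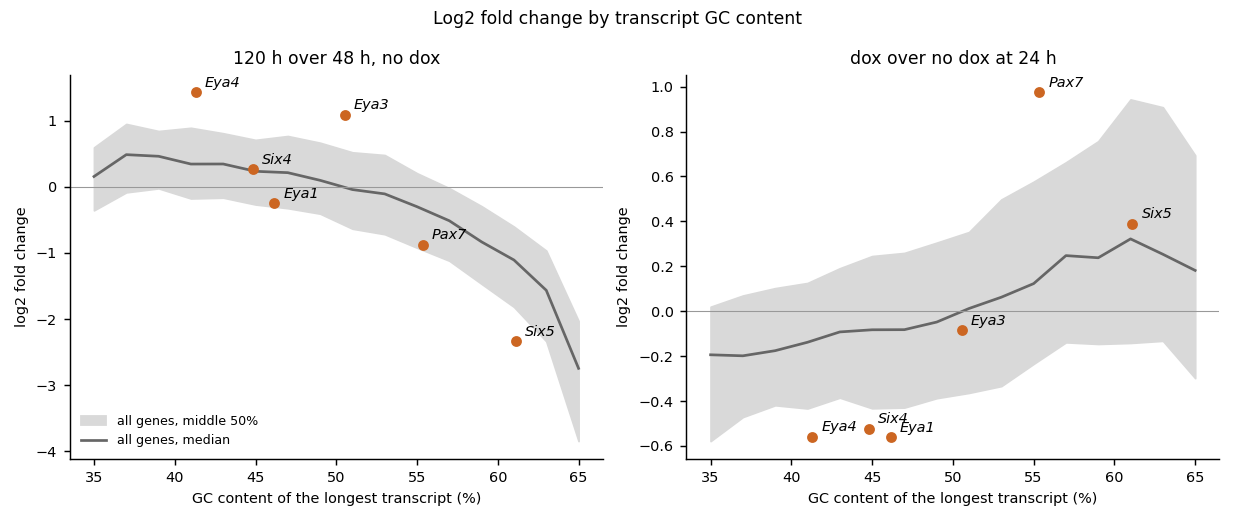
Log2 fold change against the GC content of the longest transcript: lines give the median and band the middle part (25th to 75th percentile) of genes in bins of 2 points, and named points are the 6 measured genes, from 48 to 120 h without dox on the left and with dox against without at 24 h on the right. From 48 to 120 h the bin medians are lower at high than at low GC content, and Six5 lies at -2.33, below the median of -1.12 for genes of like GC.

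The genes whose group means followed each of the 6 most closely were ranked by Pearson's r of log2(CPM + 1) over the 16 groups, among 12083 genes; the groups share batches, and r is a description. For Pax7 they were Mgll (0.94), Pnmal2 (0.94) and Igsf3 (0.94), and for Six4 Tbx18 (0.95), Tnc (0.94) and Ccn4 (0.94). For Six5 they were Ccdc102a (0.98), Tnfsfm13 (0.97) and Scarf2 (0.97). Among the Eya genes they were C1rl (0.90), Mllt3 (0.88) and C1ra (0.87) for Eya1, Smcr8, Sp1 and Gm340 (0.96, 0.96 and 0.95) for Eya3, and Rock2, Palm2 and Rps6ka3 (0.94, 0.93 and 0.93) for Eya4. No member was among these genes for another member. Between members, r was highest for Six5 with Eya1 (0.62) and lowest for Six5 with Eya3 (-0.74).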

How the data were processed

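RNA-seq was deposited for 47 libraries as 3 tables of estimated counts per transcript, which the authors made with Salmon against mouse build mm10; per the study's methods the libraries were processed with the nf-core/rnaseq pipeline, and the annotation release and the Salmon version are not given in the sources used here. GENCODE vM21 held 98.72% of the 109617 transcripts. Estimated counts were summed over transcripts with the same gene symbol and rounded to whole numbers. Genes were tested with edgeR 4.0.16 in R 4.3.3 (quasi-likelihood test, filterByExpr, TMM, Benjamini-Hochberg over all genes tested) on the groups compared, and called at an adjusted p under 0.05. CPM used TMM factors over all libraries, and TPM used annotated transcript lengths. DESeq2 1.42.0, other normalization and filters, all groups together, length-scaled counts, protein-coding transcripts, a replicate block and leaving out each library were alternatives, and a GC offset was added after seeing the data. The edgeR step was tested on simulated data.

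The members and lists were chosen with earlier results of these data known. The genes named are the 9 members, the members of 3 lists with the largest and smallest called changes, and the 3 genes with the most similar group means; Six3, Dach1 and marker genes beside a result were named after their values were seen. A further list was tested and is not reported here. P-values measure the spread between libraries labelled biological replicates. No replicates were close enough to be counted as 1 library, with 2.95 to 377.48 of chi-square per gene over 46 pairs. The tables give gene symbols by transcript, so reads shared between paralogs cannot be traced; whether counting used strand is not given. Same-numbered libraries deviated together in the C2C12 iMcam line (correlations of 0.227 to 0.419) and in the untreated fractions (0.117 to 0.413), where the numbers were taken to pair them.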

Additional observations from a re-analysis of the deposited data

Results flagged for a closer look

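For 5 genes the dox effect in C2C12 iMyoD1 at 24 h differed from that at 0 h by the interaction test, in which both times lie in 1 deposited table; 34.1% of 14448 genes were called, and 3 of the 6 with a GC offset. The difference, 24 h minus 0 h on the log2 scale, was 0.69 for Pax7 (SE 0.14, edgeR adjusted p = 0.0011) and 0.61 for Six5 (SE 0.16, edgeR adjusted p = 0.0076). It was -0.81 for Eya1 (SE 0.12, edgeR adjusted p = 6.6e-05), -0.37 for Eya4 (SE 0.10, edgeR adjusted p = 0.0079) and -0.30 for Six4 (SE 0.09, edgeR adjusted p = 0.015). For Six4 and Six5 the difference was not called with a GC offset (-0.22, adjusted p = 0.053, and 0.39, adjusted p = 0.077), and for Six4 it was not called by DESeq2 (-0.24, adjusted p = 0.055). Eya3, the sixth gene tested, had a difference of -0.18 (edgeR adjusted p = 0.091), called without the third untreated 24 h library (-0.22, adjusted p = 0.045). The cells at 0 h were in growth medium and those at 24 h in differentiation medium, each with 24 h of dox.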

How the results depend on the processing

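Of 1248 results for single members under the alternatives, 1209 kept their sign. DESeq2 called or lost 2 of 84 differently, and a GC offset 13 of 84. The number of members called with dox at 0 h went from 2 to 4 with a GC offset, without the filter on low counts and with a replicate block; at 120 h in whole culture it went from 3 to 5 with a GC offset, and the difference of the dox effect between 24 and 0 h went from 5 to 3 with it. In the myoblast-enriched fraction it went from 1 to 0 with a GC offset, with all groups together, with length-scaled counts and with protein-coding transcripts, to 2 with a replicate block, and ranged from 0 to 1 with a library left out. In the C2C12 iCdh23 line it went from 4 to 1 with all groups together (Eya1 0.66, adjusted p = 0.12; Eya3 0.32, adjusted p = 0.088; Eya4 -1.05, adjusted p = 0.069), and in the C2C12 iMcam line it ranged from 1 to 3 with a library left out. The rise of Six4 from 48 to 120 h turned to -0.059 (adjusted p = 0.36) with a GC offset, and the fall of Eya4 from 24 to 48 h was not called with it (-0.11, adjusted p = 0.25). The Eya1 difference from 48 to 120 h without dox ranged from -0.53 to 0.26 over the alternatives. The cause of these changes was not tested. Over all genes, the number called in the myoblast-enriched fraction was 619, and 1583 by DESeq2, 1 with all groups together, 1978 without the filter, 4051 with a replicate block and as few as 0 with a library left out, and between the untreated fractions 83, and 764 by DESeq2, 233 with all groups together, 461 without the filter and 676 with a replicate block. In the C2C12 iMcam line all groups together called 4121 in place of 6722. Where the numbers share no more than a label, the replicate block called Pax7 (0.24, adjusted p = 0.024) and Eya1 (0.20, adjusted p = 0.037) at 0 h, and lost Pax7 at 48 h (0.19, adjusted p = 0.053). In the dox comparison of the myoblast-enriched fraction it called Eya1 (0.43, adjusted p = 0.021); there same-numbered libraries deviated together (correlations of 0.432 and 0.30), in 2 pairs, too few to take the numbers as pairing. Where they pair the libraries, it changed 1 member call, that of Six5 in the C2C12 iMcam line. With 2 or 3 libraries a group, small differences are below what the tests can show.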
